A study of Homo sapiens with 9 samples.

Results

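The transcripts of 36 genes of homologous recombination, the Fanconi anemia pathway, mismatch repair and the DNA damage checkpoint were examined in WiDr cells after siRNA knockdown of the long noncoding RNA LIMp27. The genes were chosen by symbol from these pathways, and each of the 36 was listed once in both deposited count tables, which together list 25159 genes. WiDr is a human colon adenocarcinoma line that carries mutant p53. The cells were grown in DMEM with 10% FBS and transfected with siRNA at 100 nM for 24 h. The groups were the control siRNA (siCtrl), LIMp27 siRNA1 and LIMp27 siRNA2, with 3 libraries each. All libraries came from this 1 line. The study calls the 3 libraries of a group biological repeats, and the labels do not say how the cultures were kept apart, so that p-values measure the spread between these libraries. The study asked by which mechanism LIMp27 supports the growth of p53-mutant colon cancer cells.

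Homologous recombination repairs a broken chromosome from the sister copy. The ends are first trimmed by the MRE11-RAD50-NBN complex with RBBP8 (CtIP) and EXO1, and BRCA1-BARD1, PALB2, BRCA2, RAD51C, RAD51D, XRCC2 and XRCC3 then prepare the single strand for exchange with the intact copy. The Fanconi anemia pathway acts on crosslinks between the strands of DNA, which are among the lesions left by platinum drugs. Its core complex, with the E2 enzyme UBE2T, attaches ubiquitin to FANCD2 and FANCI, and USP1 removes it. Mismatch repair corrects replication errors, and ATM, ATR, CHEK1 and CHEK2 are the kinases that halt the cycle on damage. Many of these genes are transcribed mostly in late G1 and S phase, partly under E2F control.

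Between 14361629 and 21524623 reads per library were counted to genes. The targeted gene, LINC01356 (LIMp27), had 0, 0 and 2 reads in the siCtrl libraries, 0, 0 and 0 with LIMp27 siRNA1, and 0, 2 and 1 with LIMp27 siRNA2, so that its knockdown was not detectable at this depth. The study checked the knockdown in these cells by qPCR, which was not analysed here. The labelled cell type was checked on epithelial markers: EPCAM had a mean of 691 CPM (counts scaled to the same library size) in siCtrl cells, KRT8 8932, KRT20 362, VIL1 109 and CDH1 94.6, whereas the intestinal transcription factor CDX2 was low (1.56 CPM). Of the markers of other cell types, COL1A1 was at 0.722, VWF at 0.078 and CD68 at 0.0955 CPM, and PTPRC, PECAM1, COL1A2 and CD3E were not listed in both tables. CPM values use edgeR's TMM factors over all 9 libraries. Fold changes are from edgeR's quasi-likelihood test, fitted over all expressed genes on the 6 libraries of each comparison, and a gene was called at a Benjamini-Hochberg adjusted p below 0.05. Standard errors (SE) are on the log2 scale.

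All 36 genes passed the filter on low counts. Per transcript length their levels in siCtrl cells spanned a wide range. Their median was 23.8 FPKM, against 12.3 over all 14347 tested genes and 17.7 over the 11831 protein-coding genes among them. The length is the mean over a gene's annotated transcripts, such as 1670 bases for FANCI, 1087 for FANCA and 4970 for BRCA2. The order therefore depends on the annotation, and the lengths of the transcripts expressed in these cells were not measured. FANCI stood first with 126 ± 3.32 FPKM (SD, n = 3), followed by UBE2T with 68.8 ± 2.75, and these levels did not overlap over the libraries. Next came FANCG at 54.8, CHEK2 at 54.8 and USP1 at 53.5 FPKM. FANCG overlapped CHEK2 and CHEK2 overlapped USP1, but USP1 did not overlap FANCA, which followed. From FANCA down to EXO1, each of the genes CHEK1, MSH6, RBBP8, FANCL, RAD54L, XRCC3, NBN and MRE11 overlapped its neighbor in the order. FANCD2, which is ubiquitinated as a pair with FANCI, had 17.5 ± 0.248 FPKM, well below its partner. BRCA2 was at 6.79 ± 0.216, FANCM at 3.07 ± 0.352, RAD54B at 2.07 ± 0.321 and RAD50 at 0.703 ± 0.227 FPKM (SD, n = 3).

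**Figure D1:**
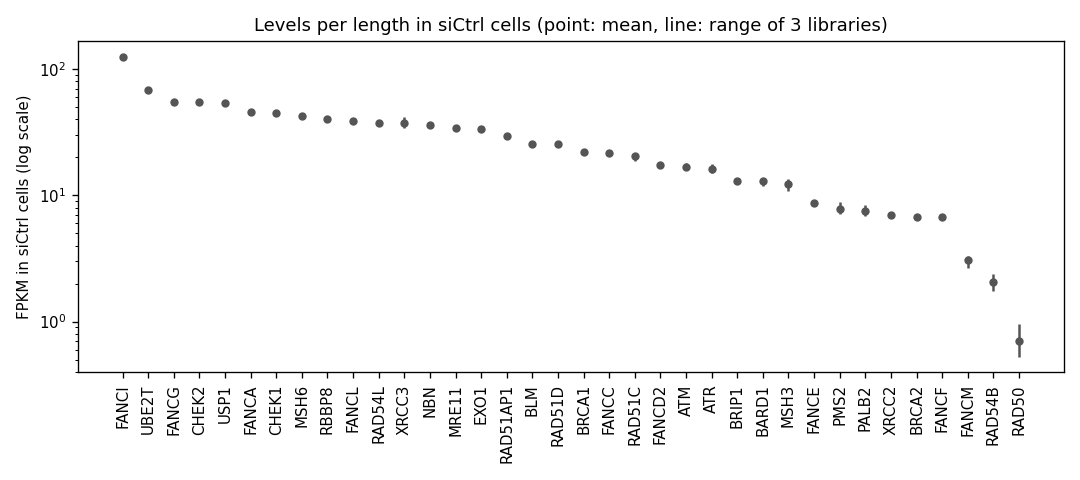
Levels per length of the 36 genes in siCtrl cells, in FPKM on a log axis, ordered by mean. Points are means and lines are the range of 3 libraries, from FANCI at 126 FPKM to RAD50 at 0.703 FPKM.

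RAD50 was far below MRE11 (34.3 FPKM) and NBN (36.2 FPKM), its partners in the complex. In GENCODE 29, 79.7% of the exonic bases of RAD50 are shared with AC116366.3, a gene on the same strand, which itself had 0 to 2 reads in a library. RAD50 had 23 to 61 reads per library. RAD54B likewise shares 59.1% of its exonic bases with FSBP on the same strand (0 to 7 reads). How the authors treated reads that fall in more than 1 gene is not given in the sources used here, so the levels of RAD50 and RAD54B are uncertain. On the opposite strand, XRCC3 shares 76.7% of its exonic bases with KLC1, and FANCA 23.6% with ZNF276. RAD54L (25.1%, LRRC41), FANCL (18.7%, VRK2), ATR (16.4%, AC109992.1), MSH6 (16.2%, FBXO11) and FANCF (11.3%, GAS2) also share bases this way, and some other members share fewer. Whether the counting used strand is not given either. PMS2 has near-identical stretches in related genes, and its level is uncertain because 9 PMS2 pseudogenes and PMS2CL entries are listed beside it.

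The genes also shared features that did not enter their choice. The median GC content of their transcripts was 43.1%, against 49.9% over tested genes. Their median transcript length was 1762 bases, against 1524 over tested genes and 1598 over tested protein-coding genes. Because GC content and length can shift counts in a library, each comparison was also fitted with offsets that remove each library's trend with both (the GC-adjusted fit). The result of this fit is given wherever it ends or adds a call.

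RefSeq promoters (GRCh38.p14, from 250 bases before to 50 after a start) were found for 33 of the 36 genes, and not for RAD54B, FANCI and NBN. The E2F forms searched, on both strands, were TTTGGCGC, TTTCGCGC, TTTCCCGC and TTTGCCGC. At least 1 was found in 8 of the 33 genes (24.2%), namely EXO1, FANCA, FANCC, FANCD2, MSH3, MSH6, PMS2 and XRCC2, compared with 6.71% of tested genes and 3.99% of all genes with a promoter. The cell cycle homology region TTTGAA was found in 5 of 33 (15.2%, against 13.3% of tested genes) and CCAAT in 18 of 33 (54.5%, against 43.5%). The E2F forms that lie before the start are shown, 5′ to 3′ on the strand of the gene to let the forms be read in place, and capitals mark the match.
FANCA (chr16:89816801-89816830, minus strand): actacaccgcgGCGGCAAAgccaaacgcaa
FANCC (chr9:95317737-95317766, minus strand): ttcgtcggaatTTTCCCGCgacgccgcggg
FANCC (chr9:95317863-95317892, minus strand): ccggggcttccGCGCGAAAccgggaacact
MSH3 (chr5:80654536-80654565, plus strand): gcggtcaagTTTGGCGCGAAAttgtggccg
PMS2 (chr7:6009131-6009160, minus strand): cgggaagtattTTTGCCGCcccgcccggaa
In MSH3 the 12 capitals hold 2 overlapping forms, 1 on each strand, from 107 to 96 bases before the start.
A match describes letters in the window, not a bound site. In the 8 genes with an E2F form the median change was −0.23 (log2) with LIMp27 siRNA1 and −0.36 with LIMp27 siRNA2, and in the 25 without one it was −0.22 with either siRNA.

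Most of the 36 genes were lower with each LIMp27 siRNA. With LIMp27 siRNA1, 22 were called lower, 3 higher and 11 neither. Over all 14347 tested genes 28.3% were called lower and 26.5% higher, against 61.1% and 8.33% of the 36. With LIMp27 siRNA2, 21 were called lower, 5 higher and 10 neither, which is 58.3% and 13.9%, and over all 14204 tested genes 29% were lower and 27.7% higher. The median log2 fold change of the 36 genes was −0.20 with LIMp27 siRNA1 and −0.29 with LIMp27 siRNA2, where the medians over all tested genes were 0.00094 and 0.012. Changes were moderate, from −0.80 (USP1) to 0.64 (FANCF) with LIMp27 siRNA1 and from −1.04 (NBN) to 0.48 (FANCF) with LIMp27 siRNA2. By libraries alone, 24 genes lay below all siCtrl libraries and 5 above with LIMp27 siRNA1, where 30.9% and 28.8% of all tested genes did. With LIMp27 siRNA2, 22 lay below and 6 above, where 31.4% and 29.8% of all genes did. Both comparisons use the same siCtrl libraries. In bulk RNA, fewer cells in a phase of the cycle and less RNA per cell cannot be told apart.

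**Figure D2:**
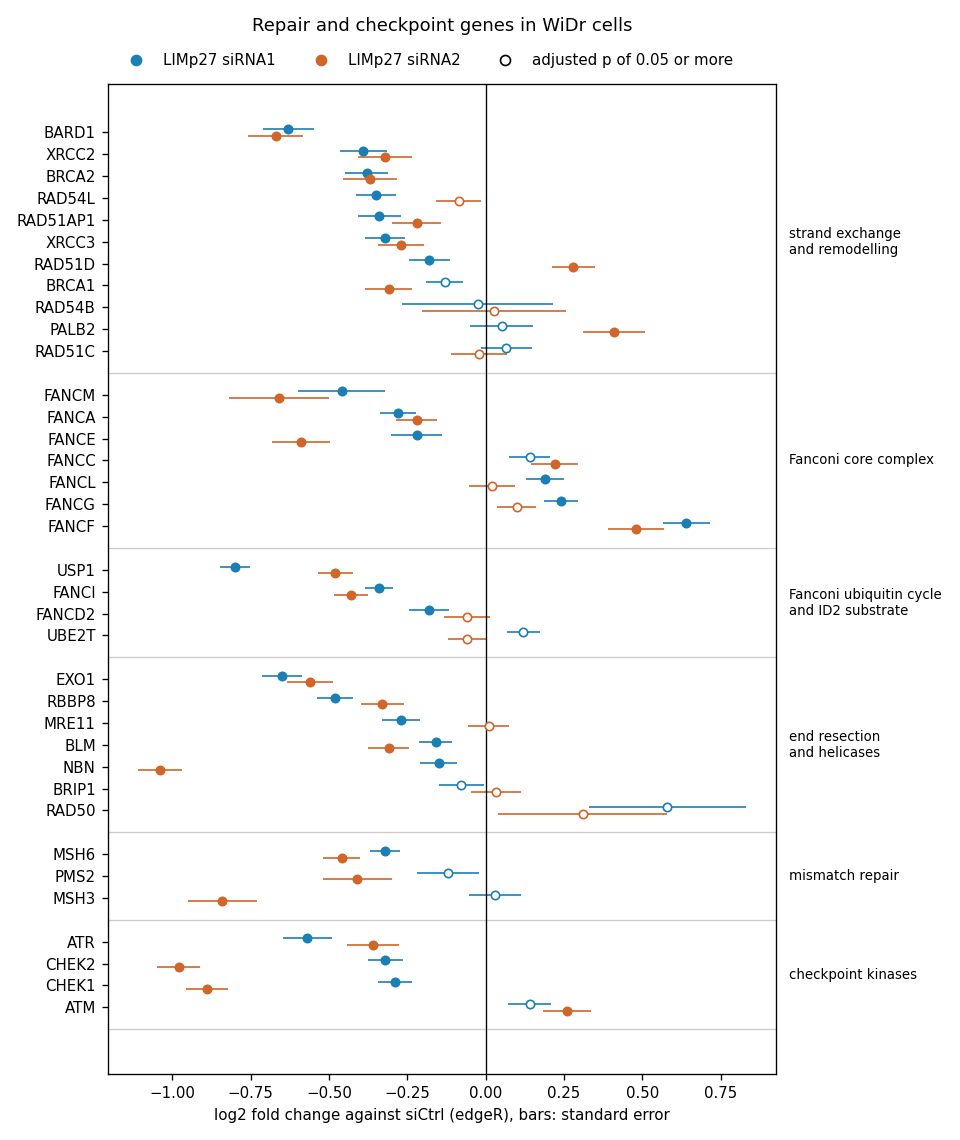
Log2 fold changes of the 36 genes against siCtrl with LIMp27 siRNA1 (blue) and LIMp27 siRNA2 (orange), grouped by role, with standard errors from edgeR. Filled points have an adjusted p below 0.05, and most of these lie left of 0, with FANCF at 0.64 and 0.48 the clearest exception.

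The GC-adjusted fit kept the direction of these counts and lowered their size. It called 18 of the 36 lower and 7 higher with LIMp27 siRNA1, beside 29.3% lower and 26.0% higher over all genes, and 16 lower and 7 higher with LIMp27 siRNA2, beside 29.7% and 28.3%. The median log2 fold changes of the 36 genes became −0.16 and −0.15. With LIMp27 siRNA1 the fit added calls of higher expression for ATM (0.29, adjusted p = 2.0e-04 from edgeR), RAD50 (0.73, 0.0132), UBE2T (0.12, 0.0305) and FANCC (0.19, 0.00984). With LIMp27 siRNA2 it added MRE11 (0.18, adjusted p = 0.00465 from edgeR) and BRIP1 (0.21, 0.0136).

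Of the ubiquitin cycle of the Fanconi pathway, USP1 and FANCI fell with each siRNA, whereas UBE2T was not called against siCtrl. USP1 (ENSG00000162607, chromosome 1, 62436297 to 62451804, plus strand) encodes the deubiquitinase that acts on FANCD2, FANCI and PCNA. Its level was 124, 124 and 125 CPM in the siCtrl libraries, 74.0, 71.2 and 68.9 with LIMp27 siRNA1, and 88.3, 87.9 and 90.3 with LIMp27 siRNA2. Every siRNA library lay below every siCtrl library, and the siRNA groups did not overlap each other. The log2 fold change was −0.80 with LIMp27 siRNA1 (SE 0.049, adjusted p = 3.1e-14 from edgeR) and −0.48 with LIMp27 siRNA2 (SE 0.056, adjusted p = 1.9e-08). FANCI, the most abundant member, had 214, 222 and 225 CPM in siCtrl cells, 168, 179.6 and 174 with LIMp27 siRNA1, and 165, 155 and 169 with LIMp27 siRNA2. These groups did not overlap with siCtrl, and the log2 fold changes were −0.34 (SE 0.044, adjusted p = 1.9e-07) and −0.43 (SE 0.053, adjusted p = 6.3e-08 from edgeR). FANCD2, the partner of FANCI, had a smaller change of −0.18 with LIMp27 siRNA1 (adjusted p = 0.0219 from edgeR), a call lost in the GC-adjusted fit (adjusted p = 0.275) and without siCtrl replicate 1 (0.0799) or LIMp27 siRNA1 replicate 1 (0.051) or 3 (0.0605). With LIMp27 siRNA2 it had −0.06 (adjusted p = 0.499). UBE2T had 0.12 (adjusted p = 0.0525 from edgeR), which was called without siCtrl replicate 3 (0.0239), and −0.06 (adjusted p = 0.418).

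The 7 genes of the core complex did not move one way. With LIMp27 siRNA1, 3 were called higher (42.9%, against 26.5% of all tested genes) and 3 lower (42.9%, against 28.3%). With LIMp27 siRNA2, 2 were called higher (28.6%, against 27.7%) and 3 lower (42.9%, against 29%). FANCF, an adaptor of the complex encoded by a single-exon gene on chromosome 11 (22622890 to 22625841), had 20.4, 21.8 and 19.8 CPM in siCtrl cells, 29.9, 32.9 and 33.1 with LIMp27 siRNA1, and 29.9, 29.6 and 26.1 with LIMp27 siRNA2. All siRNA libraries lay above siCtrl. It rose by 0.64 (SE 0.075, adjusted p = 2.8e-08 from edgeR) and 0.48 (SE 0.088, adjusted p = 3.4e-05) on the log2 scale, or to 155% and 138% of the siCtrl mean. FANCE, which binds FANCD2, went the other way. It had 22.7, 23.8 and 22.7 CPM in siCtrl cells and 14.4, 16.2 and 15.1 with LIMp27 siRNA2, a log2 fold change of −0.59 (SE 0.093, adjusted p = 3.3e-06 from edgeR). With LIMp27 siRNA1 its change of −0.22 (adjusted p = 0.0214 from edgeR) was lost without siCtrl replicate 2 (0.0647) or LIMp27 siRNA1 replicate 2 (0.118).

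The scaffold FANCA fell with LIMp27 siRNA1 (−0.28, adjusted p = 1.5e-04 from edgeR) and LIMp27 siRNA2 (−0.22, adjusted p = 0.00648). ZNF276, which overlaps FANCA on the other strand, fell as well (−0.34 and −0.52, adjusted p = 6.6e-04 and 2.3e-05 from edgeR), and its part in the reads of FANCA was not tested. FANCM, the translocase that anchors the complex on DNA, was scarce, with 7.68 to 9.51 CPM in siCtrl cells, 5.43 to 7.27 with LIMp27 siRNA1 and 4.07 to 7.0 with LIMp27 siRNA2. It changed by −0.46 (SE 0.14, adjusted p = 0.00546 from edgeR) and by −0.66 (SE 0.16, adjusted p = 9.9e-04), and the first was lost in the GC-adjusted fit (adjusted p = 0.0639) and without replicate 2 of both groups (0.12). FANCG and FANCL, the latter the ubiquitin ligase subunit, rose with LIMp27 siRNA1 by 0.24 (adjusted p = 4.7e-04 from edgeR) and 0.19 (adjusted p = 0.00754), and had 0.099 and 0.02 with LIMp27 siRNA2 (adjusted p = 0.181 and 0.838 from edgeR). The call of FANCL was lost without replicate 1 of both groups (0.118). FANCC had 0.14 with LIMp27 siRNA1 (adjusted p = 0.0657 from edgeR), with all its libraries above siCtrl. With LIMp27 siRNA2 it rose by 0.22 (adjusted p = 0.0137 from edgeR), a call lost by DESeq2 (0.0531) and without siCtrl replicate 2 (0.0555) or LIMp27 siRNA2 replicate 2 (0.0914).

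Among the genes of strand exchange and remodeling, 7 of 11 (63.6%, against 28.3% of all tested genes) were called lower with LIMp27 siRNA1. The others were not called. With LIMp27 siRNA2, 6 were lower (54.5%, against 29%) and 2 higher (18.2%, against 27.7%). BARD1, the partner of BRCA1 in its ubiquitin ligase, changed most in this group. Its level was 28.2, 31.5 and 32.3 CPM in siCtrl cells, 18.4, 21.9 and 18.9 with LIMp27 siRNA1, and 19.6, 17.8 and 20.1 with LIMp27 siRNA2. No siRNA library reached the lowest siCtrl library, and the log2 fold changes were −0.63 (SE 0.081, adjusted p = 1.3e-07 from edgeR) and −0.67 (SE 0.088, adjusted p = 1.6e-07). BRCA1 itself changed less, with 51.1, 47.0 and 47.7 CPM in siCtrl cells, 42.5, 45.5 and 44.6 with LIMp27 siRNA1 and 40.4, 34.0 and 42.2 with LIMp27 siRNA2. It fell with LIMp27 siRNA2 (−0.31, SE 0.076, adjusted p = 8.7e-04 from edgeR), while with LIMp27 siRNA1 the value of −0.13 was not called (adjusted p = 0.0594 from edgeR), though it was without siCtrl replicate 2 (0.0452) or 3 (0.0494).

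BRCA2, a mediator of strand exchange, had 35.1, 34.2 and 36.7 CPM in siCtrl cells, 28.0, 27.7 and 25.8 with LIMp27 siRNA1, and 29.6, 23.2 and 28.8 with LIMp27 siRNA2. Its log2 fold changes were −0.38 (SE 0.068, adjusted p = 2.6e-05 from edgeR) and −0.37 (SE 0.086, adjusted p = 5.8e-04), the second lost in the GC-adjusted fit (adjusted p = 0.134). PALB2, which bridges BRCA1 and BRCA2, had 12.6, 15.4 and 13.4 CPM in siCtrl cells and 18, 17.1 and 19.6 with LIMp27 siRNA2, a rise of 0.41 (SE 0.10, adjusted p = 0.00123 from edgeR). With LIMp27 siRNA1 it had 0.051 (adjusted p = 0.702).

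XRCC2, XRCC3, RAD51C and RAD51D, which act in shared complexes, differed among themselves. XRCC2 and XRCC3 fell with LIMp27 siRNA1 by 0.39 and 0.32 on the log2 scale (adjusted p = 6.0e-05 and 9.4e-05 from edgeR), and with LIMp27 siRNA2 by 0.32 and 0.27 (adjusted p = 0.00213 and 0.00314). The call of XRCC2 with LIMp27 siRNA2 was lost in the GC-adjusted fit (adjusted p = 0.114). KLC1, which overlaps XRCC3 on the other strand, rose instead (0.40 and 0.27, adjusted p = 1.1e-04 and 0.0147 from edgeR). RAD51C was not called, with 0.066 and −0.021 (adjusted p = 0.516 and 0.857 from edgeR). RAD51D had 38.7, 36 and 37.5 CPM in siCtrl cells, 31.8, 33.3 and 33.6 with LIMp27 siRNA1, and 45.1, 45.3 and 45.0 with LIMp27 siRNA2, with no overlap between any of the groups. It fell by 0.18 with LIMp27 siRNA1 (SE 0.065, adjusted p = 0.0205 from edgeR), a call lost without siCtrl replicate 1 (0.103) or LIMp27 siRNA1 replicate 1 (0.072), and rose by 0.28 with LIMp27 siRNA2 (SE 0.069, adjusted p = 0.00112). RAD51AP1, a stimulator of strand pairing, fell by 0.34 and 0.22 (adjusted p = 1.0e-04 and 0.017 from edgeR), the second lost in the GC-adjusted fit (0.274) and without siCtrl replicate 3 (0.0517) or LIMp27 siRNA2 replicate 2 (0.0985). The translocase RAD54L had −0.35 with LIMp27 siRNA1 (adjusted p = 4.1e-05 from edgeR) and −0.086 with LIMp27 siRNA2 (adjusted p = 0.312). RAD54B, at 1.77 to 3.18 CPM, was not called (adjusted p = 0.937 and 0.933).

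End resection genes and helicases were lower or not called. With LIMp27 siRNA1, 5 of 7 were lower (71.4%, against 28.3% of all tested genes), and with LIMp27 siRNA2, 4 of 7 were lower (57.1%, against 29%). EXO1, the 5′ to 3′ exonuclease of long-range resection that also serves mismatch repair, had 45.0, 45.7 and 45.3 CPM in siCtrl cells, 27.9, 28.4 and 30 with LIMp27 siRNA1, and 31.9, 28.7 and 30.7 with LIMp27 siRNA2. The siCtrl libraries lay close together and well above the others, with log2 fold changes of −0.65 (SE 0.063, adjusted p = 6.7e-10 from edgeR) and −0.56 (SE 0.073, adjusted p = 1.2e-07). RBBP8, which starts resection with MRE11, fell by 0.48 (SE 0.058, adjusted p = 4.7e-08 from edgeR) and 0.33 (SE 0.069, adjusted p = 1.4e-04).

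NBN, which recruits ATM to the MRE11 complex, showed the largest fall of the 36 genes with LIMp27 siRNA2. It had 63.4, 63.6 and 68.1 CPM in siCtrl cells, 53.7, 62.6 and 58.7 with LIMp27 siRNA1, and 33.4, 31.2 and 29.7 with LIMp27 siRNA2. The last group was at 48.4% of the siCtrl mean and far from the other libraries, a log2 fold change of −1.04 (SE 0.07, adjusted p = 2.7e-13 from edgeR). With LIMp27 siRNA1 the change of −0.15 (adjusted p = 0.0304 from edgeR) was not found in the GC-adjusted fit (−0.0041, adjusted p = 0.958) nor without siCtrl replicate 3 (0.103) or LIMp27 siRNA1 replicate 1 (0.187) or 3 (0.0578). MRE11, the nuclease, fell with LIMp27 siRNA1 (−0.27, SE 0.06, adjusted p = 3.8e-04 from edgeR), and had 0.0092 with LIMp27 siRNA2 (adjusted p = 0.917). RAD50 had 1.30 to 2.37 CPM in siCtrl cells, 2.25 to 2.76 with LIMp27 siRNA1 and 2 to 2.29 with LIMp27 siRNA2, and was not called (0.58 and 0.31, adjusted p = 0.0506 and 0.34 from edgeR). The first was called without siCtrl replicate 2 (0.0125) or LIMp27 siRNA1 replicate 1 (0.0491). The helicase BLM had −0.16 and −0.31 (adjusted p = 0.0126 and 1.6e-04 from edgeR), and both calls were lost in the GC-adjusted fit (adjusted p = 0.841 and 0.09), the first also without replicate 1 (0.0681) or 2 (0.0538) of both groups. BRIP1 (FANCJ), the helicase partner of BRCA1, had −0.078 and 0.033 (adjusted p = 0.376 and 0.745 from edgeR).

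**Figure D3:**
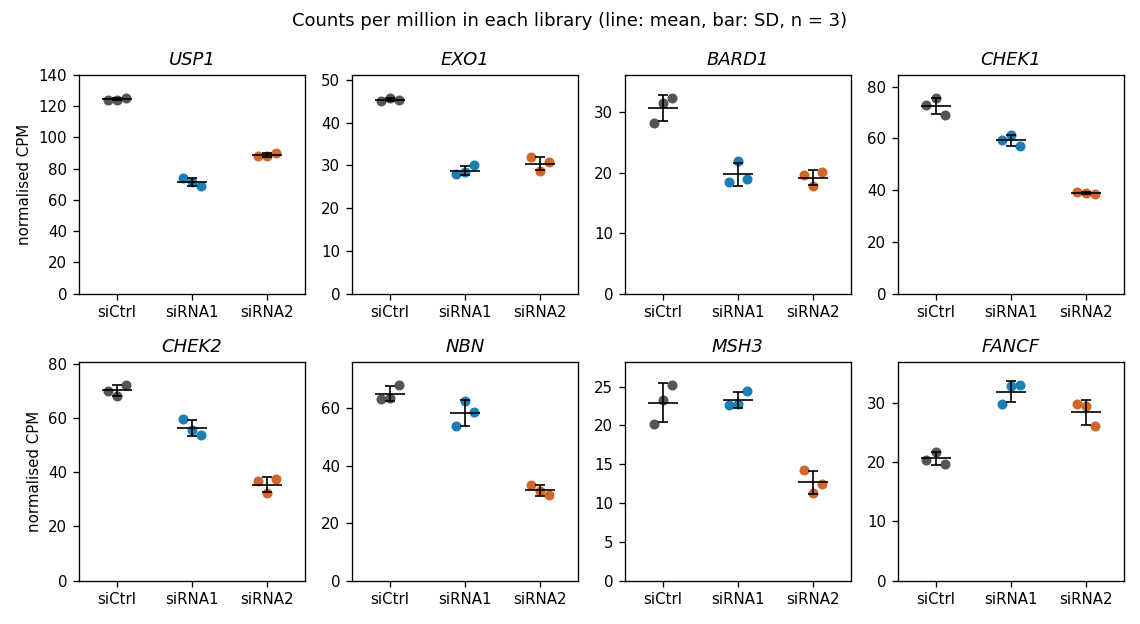
Normalised CPM of 8 genes in each library of siCtrl, LIMp27 siRNA1 and LIMp27 siRNA2, with means (lines) and SDs (bars, n = 3). USP1, EXO1 and BARD1 lie below siCtrl with each siRNA, CHEK1, CHEK2 and NBN are lowest with LIMp27 siRNA2, MSH3 is lower with LIMp27 siRNA2, and FANCF lies above siCtrl with each.

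Of the mismatch repair genes, MSH6 fell with each siRNA and MSH3 with LIMp27 siRNA2. MSH6, the partner that recognizes single mismatches, had 114, 121 and 111 CPM in siCtrl cells, 90.8, 92.8 and 92.0 with LIMp27 siRNA1, and 86.2, 79.0 and 85.5 with LIMp27 siRNA2. The groups did not overlap, and the log2 fold changes were −0.32 (SE 0.048, adjusted p = 1.5e-06 from edgeR) and −0.46 (SE 0.06, adjusted p = 1.6e-07). MSH3 (chromosome 5, 80654648 to 80876460, plus strand), which recognizes longer loops, had 20.2, 23.3 and 25.2 CPM in siCtrl cells, 22.6, 22.8 and 24.4 with LIMp27 siRNA1, and 14.3, 11.3 and 12.4 with LIMp27 siRNA2. With LIMp27 siRNA1 it overlapped siCtrl (0.03, SE 0.083, adjusted p = 0.784 from edgeR), and with LIMp27 siRNA2 it was at 55.3% of the siCtrl mean (−0.84, SE 0.11, adjusted p = 1.1e-07). PMS2 had −0.12 (adjusted p = 0.334 from edgeR) and −0.41 (adjusted p = 0.0029). The second call was lost without replicate 3 of both groups (0.0976).

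CHEK1 and CHEK2, the effector kinases, fell with each siRNA, and more with LIMp27 siRNA2. CHEK1 (chromosome 11, 125625136 to 125676255, plus strand) had 72.9, 75.5 and 69.1 CPM in siCtrl cells, 59.4, 61.3 and 57.2 with LIMp27 siRNA1, and 39.4, 38.8 and 38.5 with LIMp27 siRNA2. The 3 groups were ordered without overlap, with log2 fold changes of −0.29 (SE 0.054, adjusted p = 4.7e-05 from edgeR) and −0.89 (SE 0.066, adjusted p = 2.1e-12). CHEK2 (chromosome 22, 28687743 to 28742422, minus strand) had 70.2, 68.4 and 72.3 CPM in siCtrl cells, 59.6, 55.7 and 53.8 with LIMp27 siRNA1, and 36.8, 32.3 and 37.4 with LIMp27 siRNA2. It showed the same order, with −0.32 (SE 0.055, adjusted p = 1.4e-05 from edgeR) and −0.98 (SE 0.069, adjusted p = 7.2e-13). ATR, the sensor kinase of stalled forks that activates CHEK1, had 35.1, 32.5 and 29.9 CPM in siCtrl cells, 20.1, 23.1 and 22.3 with LIMp27 siRNA1, and 26.3, 24.3 and 24.7 with LIMp27 siRNA2. Its log2 fold changes were −0.57 (SE 0.078, adjusted p = 3.6e-07 from edgeR) and −0.36 (SE 0.083, adjusted p = 4.6e-04), the second lost in the GC-adjusted fit (adjusted p = 0.0848). ATM, the sensor kinase of double-strand breaks, did not fall. It had 0.14 with LIMp27 siRNA1 (adjusted p = 0.0874 from edgeR), which was called without siCtrl replicate 3 (0.0287) or LIMp27 siRNA1 replicate 3 (0.0485). The GC-adjusted fit also called ATM higher with LIMp27 siRNA1 (0.29, adjusted p = 2.0e-04 from edgeR). With LIMp27 siRNA2 ATM rose by 0.26 (SE 0.076, adjusted p = 0.00496), a call lost without LIMp27 siRNA2 replicate 1 (0.0736).

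The siRNAs were compared with each other on their own 6 libraries, without siCtrl. Of the 36 genes, 7 were lower and 6 higher with LIMp27 siRNA2 than with LIMp27 siRNA1, or 19.4% and 16.7%, and over all 14415 tested genes 22.4% were lower and 23.1% higher. The libraries of LIMp27 siRNA2 all lay below those of LIMp27 siRNA1 in 12 genes and above in 8, against 27.2% and 25.3% of all genes. The largest differences were in NBN (−0.88, SE 0.072, adjusted p = 1.6e-11 from edgeR), MSH3 (−0.86, SE 0.096, adjusted p = 1.0e-08), CHEK2 (−0.65, SE 0.071, adjusted p = 5.2e-09) and CHEK1 (−0.59, SE 0.065, adjusted p = 6.1e-09), all lower with LIMp27 siRNA2, where no library of 1 siRNA overlapped the other. FANCE (−0.36, adjusted p = 0.00178 from edgeR) was lower as well. PMS2 (−0.28, adjusted p = 0.0294 from edgeR) was also lower, a call lost by DESeq2 (0.0792) and without LIMp27 siRNA1 replicate 2 (0.0919) or 3 (0.111) or LIMp27 siRNA2 replicate 3 (0.0841). UBE2T (−0.17, adjusted p = 0.0186 from edgeR) lost its call without LIMp27 siRNA1 replicate 1 (0.0622).

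Higher with LIMp27 siRNA2 than with LIMp27 siRNA1 were RAD51D (0.47, SE 0.068, adjusted p = 1.1e-06 from edgeR), PALB2 (0.37, adjusted p = 0.00259), USP1 (0.33, SE 0.058, adjusted p = 1.9e-05), MRE11 (0.29, adjusted p = 6.9e-04) and RAD54L (0.27, adjusted p = 0.002). Without replicate 3 of both groups, PALB2 (0.111) and MRE11 (0.0502) were not called. ATR (0.22, adjusted p = 0.0324 from edgeR) was the sixth, a call lost by DESeq2 (0.0978), without the filter on low counts (0.0629) and without LIMp27 siRNA1 replicate 1 (0.172) or 3 (0.0636) or LIMp27 siRNA2 replicate 1 (0.134). BARD1, BRCA2, EXO1 and FANCI, which fell against siCtrl with each siRNA, differed between the siRNAs by −0.03, 0.022, 0.095 and −0.081 (SE 0.091, 0.086, 0.075 and 0.053), and none was called (adjusted p = 0.815, 0.859, 0.317 and 0.215 from edgeR). Without LIMp27 siRNA2 replicate 3, BRCA1 (0.00948), BLM (0.0211) and MSH6 (0.0367) were called lower as well, and without LIMp27 siRNA2 replicate 1, FANCL (0.0157). The GC-adjusted fit called 9 genes lower and 9 higher between the siRNAs, beside 23.9% and 25% over all genes, adding BRCA1 (−0.16, adjusted p = 0.0376 from edgeR) and MSH6 (−0.15, 0.0129) on the lower side and RAD51AP1 (0.19, 0.0227), ATM (0.17, 0.0308) and RBBP8 (0.18, 0.0117) on the higher side.

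**Figure D4:**
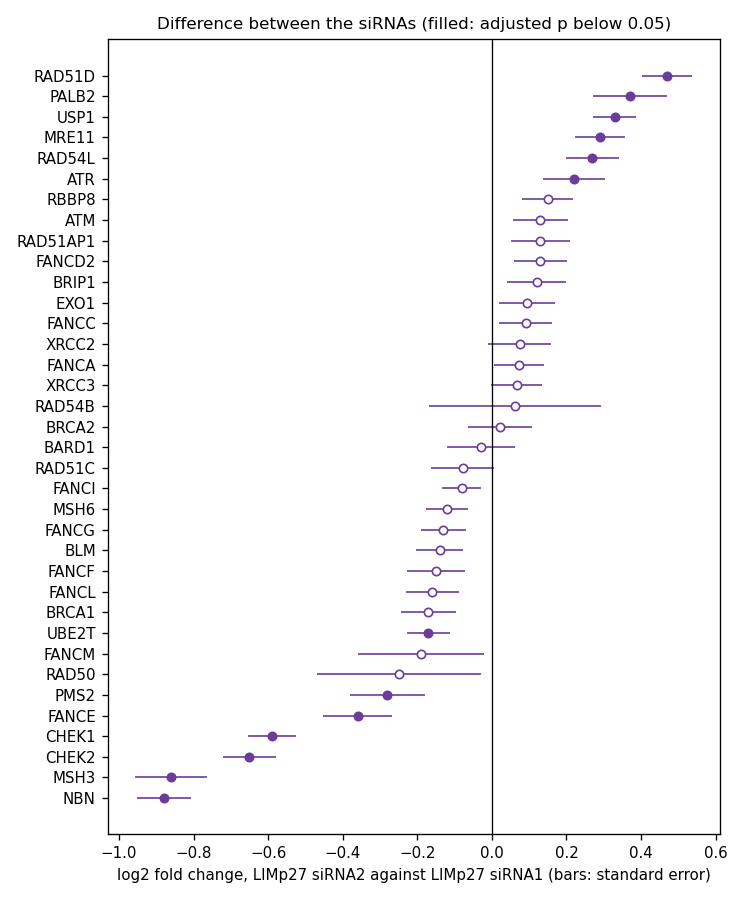
Log2 fold changes of the 36 genes with LIMp27 siRNA2 against LIMp27 siRNA1, with standard errors from edgeR, ordered by size. Filled points have an adjusted p below 0.05, from NBN at −0.88 and MSH3 at −0.86 to RAD51D at 0.47.

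Other genes of these pathways were counted in the same fits. Among 28 other homologous recombination genes, 12 were higher and 8 lower with LIMp27 siRNA1 and 8 were higher and 5 lower with LIMp27 siRNA2. These are 42.9% and 28.6% with LIMp27 siRNA1, and 28.6% and 17.9% with LIMp27 siRNA2, beside the shares over all tested genes of 26.5% higher and 28.3% lower, and of 27.7% higher and 29% lower. SEM1, a small partner of BRCA2, rose by 0.37 and 0.49 (adjusted p = 7.3e-07 and 2.3e-08 from edgeR), and BRCC3, a deubiquitinase of the BRCA1-A complex, fell by 0.53 and 0.47 (adjusted p = 3.7e-08 and 4.0e-06). Of 13 other Fanconi genes, 2 were lower (15.4%) and 4 higher (30.8%), and then 3 lower (23.1%) and 2 higher (15.4%). ERCC1, a subunit of the nuclease that unhooks crosslinks, rose by 0.64 with LIMp27 siRNA1 (adjusted p = 6.0e-12 from edgeR) and had 0.0092 with LIMp27 siRNA2 (adjusted p = 0.913), and the ligase RFWD3 fell by 0.28 and 0.22 (adjusted p = 5.6e-05 and 0.00421). Of 13 other mismatch repair and gap filling genes, 7 were lower with each siRNA (53.8%), 2 were higher with LIMp27 siRNA1 (15.4%), and the rest were not called. RFC3 of the clamp loader fell by 0.46 and 0.77 (adjusted p = 9.9e-09 and 9.4e-12 from edgeR), and PCNA, the sliding clamp, had −0.099 and −0.52 (adjusted p = 0.0499 and 1.1e-09).

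Of 16 other damage signaling genes, 7 were lower (43.8%) and 2 higher (12.5%) with LIMp27 siRNA1. With LIMp27 siRNA2, 8 of the 16 were lower and 2 higher (12.5%). Over all tested genes 28.3% were lower and 26.5% higher with LIMp27 siRNA1, and 29% and 27.7% with LIMp27 siRNA2. WEE1, the kinase that restrains CDK1, fell by 0.75 with LIMp27 siRNA1 (adjusted p = 3.9e-12 from edgeR) and rose by 0.22 with LIMp27 siRNA2 (adjusted p = 0.00465), and the histone gene H2AX rose by 0.61 and 0.52 (adjusted p = 1.5e-11 and 5.7e-08). Of 14 end joining genes tested, 8 were lower with each siRNA (57.1%), and 3 and 2 were higher (21.4% and 14.3%). POLQ, the polymerase of microhomology-mediated joining, fell by 0.76 and 1.21 (adjusted p = 6.5e-11 and 6.6e-14 from edgeR) and XRCC5 (Ku80) had −0.10 and −0.61 (adjusted p = 0.0316 and 7.0e-12).

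Genes of S phase and replication were mostly lower. Of 29, 21 were lower (72.4%, against 28.3% of all tested genes) and 3 higher (10.3%, against 26.5%) with LIMp27 siRNA1. With LIMp27 siRNA2, 22 were lower (75.9%, against 29%) and 1 higher (3.45%, against 27.7%). The medians were −0.23 and −0.27 on the log2 scale. TYMS had −0.45 and −1.15 (adjusted p = 9.9e-10 and 3.7e-16 from edgeR) and FEN1 −0.19 and −1.07 (adjusted p = 0.00124 and 1.5e-15). Of 22 genes of G2 and M phase, 8 were lower (36.4%) and 4 higher (18.2%) with LIMp27 siRNA1, nearer the shares over all tested genes. With LIMp27 siRNA2, 12 were lower (54.5%) and 5 higher (22.7%). CCNA2 had −0.33 and −1.04 (adjusted p = 2.4e-06 and 1.3e-14 from edgeR) and CDK1 −0.28 and −0.67 (adjusted p = 4.0e-06 and 1.0e-11). The part of the cell cycle in the changes of the repair genes was not tested.

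**Figure D5:**
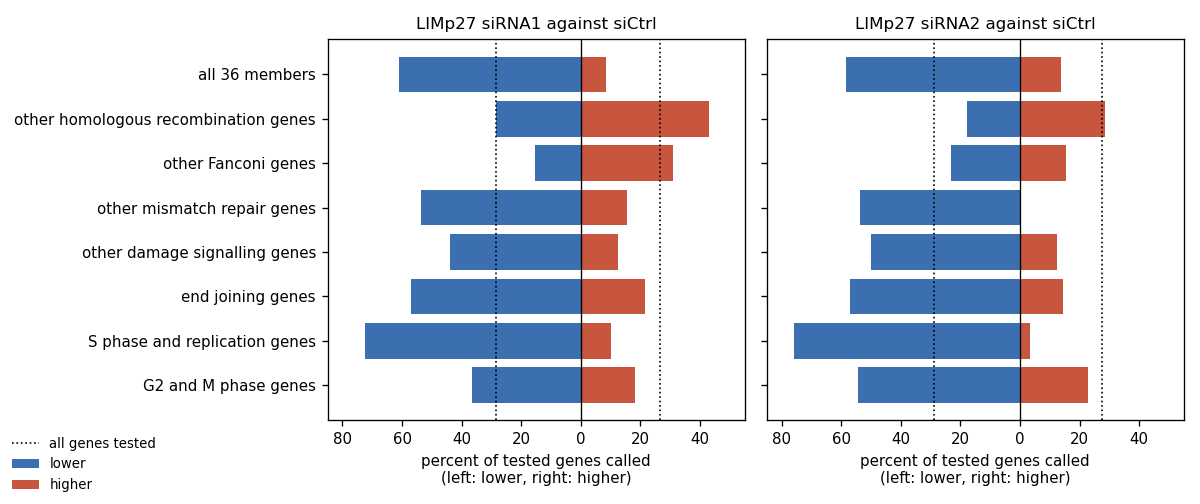
Percent of tested genes called lower (left, blue) and higher (right, red) against siCtrl in the 36 genes and 7 other lists, for LIMp27 siRNA1 and LIMp27 siRNA2. Dotted lines give the percent over all tested genes (28.3% lower and 26.5% higher, and 29% and 27.7%), which the 36 genes exceed on the lower side at 61.1% and 58.3%. S phase and replication genes exceed them further (72.4% and 75.9%), and end joining genes do so at 57.1% with each siRNA. Other Fanconi genes lie below them (15.4% and 23.1%), and other homologous recombination genes (28.6% and 17.9%) do not exceed both.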

How the data were processed

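Total RNA from 9 libraries (3 per group) was sequenced as strand-specific libraries. Per the submitters' processing notes, CASAVA and GRCh38 (hg38) were used, and the aligner and the counting program are not given in the sources used here. The authors deposited raw read counts per gene, and FPKM, which were checked to be counts per kilobase of mean transcript length of reads scaled to the same library size (within 1% for 100% of nonzero values). The authors' normalized values (12 columns), fold changes and p-values, 1 comparison per LIMp27 siRNA against siCtrl, were not used. The siCtrl counts are the same in both tables.

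Counts were filtered (filterByExpr, minimum count 10), scaled by TMM and tested with edgeR 4.0.16 (quasi-likelihood test, R 4.3.3), on the 6 libraries of each comparison, with Benjamini-Hochberg adjustment over all tested genes. The paper names no RNA-seq test. FPKM were used only to rank levels. On simulated counts, 100 genes were changed by 0.5 on the log2 scale and 100 others by 1. Of the genes changed by 0.5 that passed the filter again, 66.3% (LIMp27 siRNA1), 64.9% (LIMp27 siRNA2) and 72.4% (LIMp27 siRNA2 against LIMp27 siRNA1) were called. There were 8, 11 and 8 calls among 13959, 13826 and 14021 unchanged genes. In the data many more genes were called, 4066 lower and 3802 higher with LIMp27 siRNA1. The Benjamini-Hochberg cutoff depends on that number, so these simulated shares and counts do not estimate those in the data. Intervals are not given, and SDs are over 3 libraries.

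The 36 genes and the other lists were chosen by knowledge of the pathways, with earlier results of these data known. All 36 are named, with at most 2 genes per other list (lowest adjusted p against siCtrl). KLC1, ZNF276, AC116366.3 and FSBP, which overlap members, were named after their values were seen, and no values are given for the other overlapping genes. GC content and transcript length came from GENCODE 29 (25145 of 25159 gene IDs matched). Alternatives were RLE size factors, DESeq2 1.42.0, no filter, a block for the replicate number, 1 joint fit of the 9 libraries, offsets for GC content and length, and leaving out each library or replicate number. Same-numbered libraries of different groups did not deviate together (r from -0.081 to 0.03 over 9 pairs). The siRNA sequences were not used here, so seed matches were not analysed. Some withheld genes are not reported here.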

Additional observations from a re-analysis of the deposited data

Results flagged for a closer look

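RAD51D, MSH3, MRE11 and UBE2T differed between LIMp27 siRNA2 and LIMp27 siRNA1 by edgeR's direct test while their log2 fold changes against siCtrl had opposite signs. RAD51D differed by 0.47 (adjusted p = 1.1e-06 from edgeR), from −0.18 with LIMp27 siRNA1 to 0.28 with LIMp27 siRNA2. MSH3 differed by −0.86 (adjusted p = 1.0e-08), from 0.03 to −0.84, and only the second was called against siCtrl. MRE11 differed by 0.29 (adjusted p = 6.9e-04), from −0.27, which was called, to 0.0092, which was not. UBE2T differed by −0.17 (adjusted p = 0.0186), from 0.12 to −0.06, neither called. Only RAD51D was called against siCtrl with each siRNA. The values of 0.03 (SE 0.083) for MSH3 and 0.0092 (SE 0.065) for MRE11 lay within their errors of 0, and their signs changed in other fits. In the GC-adjusted fit, however, MRE11 was called higher with LIMp27 siRNA2 (0.18, adjusted p = 0.00465 from edgeR). RAD51D lost its LIMp27 siRNA1 call without siCtrl replicate 1 (adjusted p = 0.103 from edgeR), and UBE2T its direct call without LIMp27 siRNA1 replicate 1 (0.0622).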

How the results depend on the processing

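With LIMp27 siRNA1, the count of genes called higher was 3 and became 5 with RLE size factors and 7 with GC content and length offsets, and the median log2 fold change of −0.20 became −0.16 with these offsets. With LIMp27 siRNA2 the median of −0.29 became −0.15 with the offsets. Between the siRNAs, 1 fit over all 9 libraries called 12 genes lower in place of 7. Leaving out a library or a replicate number gave 2 to 5 genes higher, 17 to 22 lower and medians of −0.22 to −0.19 with LIMp27 siRNA1, 4 to 5 higher, 20 to 21 lower and medians of −0.30 to −0.25 with LIMp27 siRNA2, and 3 to 7 higher, 5 to 9 lower and medians of −0.086 to 0.045 between the siRNAs. Genes near 0 that were not called changed sign. With the offsets RAD54B became 0.046 and BRIP1 0.059 with LIMp27 siRNA1, and RAD51C 0.055 and FANCD2 0.051 with LIMp27 siRNA2. With LIMp27 siRNA2, MRE11 became −0.0023 by DESeq2 and −0.016 without the filter, and FANCL −0.0048 without the filter. Over the fits that left out a library or a replicate number, the log2 fold changes with LIMp27 siRNA1 ran from −0.084 to 0.13 for PALB2, −0.05 to 0.10 for MSH3 and −0.24 to 0.21 for RAD54B. With LIMp27 siRNA2 they ran from −0.11 to 0.064 for RAD51C, −0.11 to 0.16 for RAD54B, −0.078 to 0.068 for FANCL, −0.045 to 0.041 for MRE11 and −0.0058 to 0.052 for BRIP1. Between the siRNAs they ran from −0.10 to 0.097 for BARD1, −0.057 to 0.14 for BRCA2, −0.18 to 0.32 for RAD54B and −0.17 to 0.015 for RAD51C. The cause of these changes was not tested. DESeq2 called 18 genes lower with LIMp27 siRNA1 and lost NBN, FANCE, FANCD2 and RAD51D, and it lost FANCC with LIMp27 siRNA2 and PMS2 and ATR between the siRNAs. The replicate number as a block gave 22 lower and 3 higher with LIMp27 siRNA1, 21 lower and 5 higher with LIMp27 siRNA2, and 7 lower and 6 higher between the siRNAs, and changed no call of the 36 genes. RAD50 and RAD54B had the fewest reads, and their standard errors of 0.22 to 0.27 limit what their tests could show.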
